A study of Mus musculus with 6 samples.

Results

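Aktip and the genes of its dynein adaptor complex were examined in cultured mouse neural stem cells with and without silencing of a circular RNA. The set was the 7 entries Aktip, Hook1, Hook2, Hook3, Fam160a1, Fam160a2 and Fam160b1 of 54884 in the table, found by symbol. All 7 had an entry, and 6 of them passed the filter of a mean of at least 1 FPKM (fragments counted on a gene, scaled to the length of its transcript and to the mapped fragments of the library) over the libraries. The set was chosen by the FPKM values of Aktip, which fell with the siRNA in these same libraries. Those values are therefore a description, with no test. The other 6 genes were listed for their place in the complex.

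The cells were neural stem cells of C57BL/6 mice, isolated from the hippocampus at embryonic day 14 and used between passages 3 and 8. The 3 control libraries came from cells given a lentivirus with circCon siRNA. The 3 circHIPK2 siRNA libraries came from cells given a lentivirus with siRNA against circHIPK2, a circular RNA of the Hipk2 gene. Whether the libraries of a group came from separate cultures is not stated in the labels. A p-value here reflects the spread among these libraries, which could be technical. Values of a group are listed in the order of replicates 1 to 3.

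Aktip, also known as Fts, resembles the enzymes that conjugate ubiquitin but lacks their catalytic cysteine. It binds the end of Hook proteins together with a FHIP protein, a product of the Fam160 genes. The Hook proteins are long coiled coils that join cargo to cytoplasmic dynein and dynactin, the motor and its cofactor that carry endosomes and other cargo toward the minus ends of microtubules. The FHIP proteins connect the assembly to membranes that carry Rab proteins. Aktip has also been described as a partner of the Akt kinases and of proteins at telomeres and replication forks.

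Aktip lies on the minus strand of mouse chromosome 8. The deposited entry is 1 value per gene, whereas the GENCODE M21 annotation lists 13 Aktip transcripts of 139 to 3533 nt, so starts and isoforms cannot be told apart in it. RefSeq (GRCm38.p6) lists several starts for the gene. The 250 bases before 2 of them, neither overlapping an annotated exon, are given here because the single value covers both. Capitals mark matches to the CCAAT box (CCAAT) or the GC box (GGGCGG) on either strand.

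Aktip start at the window chr8:91134028-91134277, minus strand: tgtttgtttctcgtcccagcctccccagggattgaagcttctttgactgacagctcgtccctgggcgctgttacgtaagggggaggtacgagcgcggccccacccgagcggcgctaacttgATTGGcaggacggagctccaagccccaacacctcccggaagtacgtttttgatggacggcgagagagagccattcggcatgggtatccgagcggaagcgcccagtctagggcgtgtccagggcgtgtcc

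Aktip start at the window chr8:91135495-91135744, minus strand: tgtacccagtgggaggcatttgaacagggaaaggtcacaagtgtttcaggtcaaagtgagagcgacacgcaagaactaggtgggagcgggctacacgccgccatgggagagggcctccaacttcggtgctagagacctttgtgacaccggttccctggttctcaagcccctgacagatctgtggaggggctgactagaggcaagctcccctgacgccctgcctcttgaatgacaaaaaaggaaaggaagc

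The first window holds 1 CCAAT match, read on the opposite strand, and 0 GC boxes, at 61.6% GC. The second window holds 0 of either, at 56.0% GC. A CCAAT match is held by 33.8% and a GC box by 32.7% of all 32851 such windows from RefSeq, whose median GC content is 52.4%. Promoter windows were matched for 5 of the 7 genes, Hook3 and Fam160a2 being the others. Among them Fam160b1 had 8 GC boxes, some of them overlapping, Hook1 and Hook2 had 3 each, and Fam160a1 had 0. CCAAT matches numbered 2 for Hook1, 1 for Fam160a1 and 0 for Hook2 and Fam160b1. Unlike the Aktip windows above, these overlapped annotated exons, over 250 bases for Fam160b1 and Hook1, 57 for Fam160a1 and 20 for Hook2. A further Aktip window, chr8:91133740-91133989, was likewise exonic over its 250 bases. It held 1 GC box and 0 CCAAT matches at 74.8% GC. The TATA box (TATAAA on either strand), in 12.4% of all windows, was found only for Fam160a1 among the 5 genes, as 2 overlapping matches.

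Depth, read from the steps of the low FPKM values, was 18320000 to 21890000 fragments per library. Of these values 35.9% to 39.3% fell no more than 0.05 steps from a whole number of steps. The depth was chosen to make this share largest, so the 10% for evenly spread values at a fixed depth is not its chance level. Some libraries matched a multiple of this depth more closely, so the depths are approximate. Summed over 10 neural stem cell markers, the libraries held 1973 to 2514 FPKM in the controls and 1783 to 2240 with the siRNA. Fabp7 was the largest part of this sum, with means of 1206 and 755 FPKM. Vim, with means of 507 and 626 FPKM, and Slc1a3, with 304 and 353, were higher with the siRNA. Nes had means of 77.2 and 71.0 FPKM and Sox2 of 98.0 and 105. The 5 microglia markers summed to at most 0.922 FPKM, with Cx3cr1 at 0 in every library, and the 5 endothelial and pericyte markers to 0.356 to 0.438 FPKM in the controls and 0.165 to 0.301 with the siRNA. Neuron markers summed to 126 to 135 FPKM in the controls and 98.9 to 111 with the siRNA. Multiciliated ependymal markers summed to 6.23 to 6.70 and 7.26 to 8.92 FPKM. Neither sum overlapped, and of all entries tested 22.1% lay entirely below and 2.65% entirely above the controls. Map2 made up most of the neuron sum, with means of 109 and 89.0 FPKM, and Foxj1 most of the ependymal sum, with 5.63 and 7.41. Rbfox3, at 0.195 and 0.258, and Rarres2, at 0.672 and 0.656, went the other way. The part of these markers in the results was not tested. Oligodendrocyte lineage markers were present at 769 to 840 FPKM in the controls and 615 to 770 with the siRNA. Astrocyte markers were also present, at 224 to 409 FPKM in the controls and 193 to 434 with the siRNA. A set of 10 hepatocyte markers summed to 37.4 to 61.3 FPKM in the controls and 2.10 to 2.23 with the siRNA. A group of 9 entries known from earlier results, at the ribosomal RNA locus or rising together with it, took 0.32% to 0.58% of FPKM in the controls and 3.24% to 19.9% with the siRNA. The mRNA of Hipk2 measured 30.9 to 36.9 FPKM in the controls and 23.8 to 28.8 with the siRNA, which is not a measurement of the circle and so does not check its silencing.

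Aktip read 24.7, 23.9 and 16.5 FPKM in the control replicates against 8.30, 7.48 and 6.37 in the siRNA replicates. The groups did not overlap, and control library 3 was the lowest of the controls, at 1.99 times the highest siRNA library. The means were 21.7 ± 4.51 and 7.38 ± 0.97 FPKM (SD, n = 3 each), so that the siRNA libraries held 34.0% of the control level. The difference was −1.42 on the log2(FPKM + 1) scale, which ranked Aktip as the entry with the 12th lowest difference of 13702 tested. The median over all entries was −0.12, and relative to it Aktip stood at −1.30. In bulk RNA, fewer cells with Aktip and less Aktip RNA per cell cannot be told apart.

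Under the alternatives tried, the Aktip difference lay between −1.60 without control library 3 and −1.29 without the ribosomal RNA locus entries, values that come from the libraries that chose it. As a group the siRNA libraries, with less Aktip, also had more FPKM in the ribosomal RNA locus entries and less in the hepatocyte markers. Within the groups the order was mixed. Control library 3, with the lowest Aktip of the controls, had the smallest share in the ribosomal RNA locus entries (0.32%). In siRNA library 3, with the lowest Aktip of all, that share was the largest (19.9%). Control library 1, with the highest Aktip, had the highest hepatocyte sum (61.3 FPKM). Control library 2, with 23.9 FPKM of Aktip, had the lowest hepatocyte sum of the controls (37.4 FPKM). The siRNA library with the highest Aktip of its group, library 1, had the lowest sum there, in a narrow range of 2.10 to 2.23 FPKM. Apoa2, with an siRNA mean of 1.89 FPKM, made up most of the siRNA sums. The part of the ribosomal RNA locus entries or of the hepatocyte markers in the Aktip difference was not tested.

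**Figure D1:**
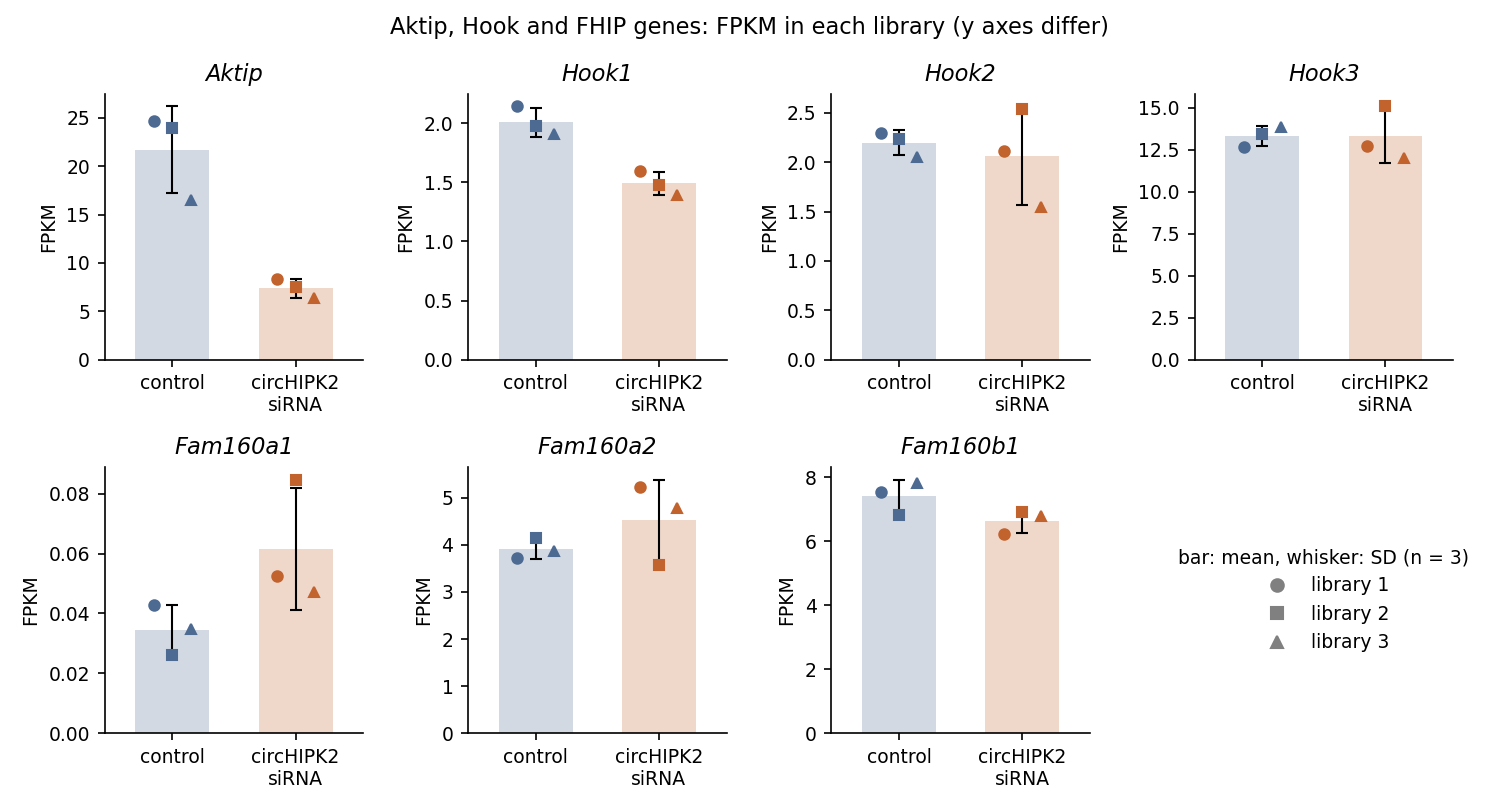
FPKM of the 7 genes in each of 3 control (blue) and 3 circHIPK2 siRNA (orange) libraries. Bars are means, whiskers the SD, symbols the libraries, and the y axes differ between panels. Aktip is at 16.5 to 24.7 FPKM in the controls and 6.37 to 8.30 with the siRNA, while Hook1 is the only tested partner whose groups do not overlap.

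Of the 6 partners, 5 passed the filter, and 0 of these were called at a limma p adjusted over all entries by the Benjamini-Hochberg (BH) method below 0.05. Over all 13702 entries 0.255% were called, 0.117% higher and 0.139% lower. At an unadjusted p below 0.05 there was 1, Hook1, which was lower, against 15.5% of all entries lower and 1.83% higher. The siRNA libraries lay entirely below the controls for 1 of the 5, again Hook1, against 22.1% of all entries, and entirely above for 0, against 2.65%. A single lower partner of 5 is near that background.

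Hook1, the adaptor whose loss gives misshapen sperm heads in the azh mouse, was the least abundant of the 3 Hook genes. It read 2.14, 1.97 and 1.90 FPKM in the control replicates against 1.59, 1.48 and 1.40 in the siRNA replicates. The siRNA libraries were lower without overlap, and the spread within each group was small. The means were 2.01 ± 0.12 and 1.49 ± 0.098 FPKM (SD, n = 3 each), or 74.2% of the control level. The difference of −0.27 (SE 0.11, 95% interval −0.51 to −0.03) on the log2(FPKM + 1) scale did not pass after adjustment over all entries (limma, BH-adjusted p = 0.253). An exact two-sided permutation test over libraries gave p = 0.1, the smallest that 3 against 3 allows. Relative to the median of all entries Hook1 stood at −0.15, and its direction was kept in every alternative that could test it, between −0.41 and −0.18.

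Hook2, an adaptor found at the centrosome, read 2.29, 2.24 and 2.05 FPKM in the control replicates against 2.12, 2.54 and 1.54 in the siRNA replicates. The siRNA libraries included both the highest and the lowest of the 6. The means were 2.19 ± 0.13 and 2.07 ± 0.50 FPKM (SD, n = 3 each), and the log2(FPKM + 1) difference was −0.07 (95% interval −0.39 to 0.25; limma, BH-adjusted p = 0.80). With median-of-ratios or quantile scaling it turned to 0.0093 and 0.0027, so Hook2 had no settled direction.

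Hook3, an adaptor of the Golgi apparatus and of centriolar satellites that has been studied in neural progenitors with its partner Pcm1, was the most abundant Hook gene. It read 12.7, 13.4 and 13.9 FPKM in the control replicates against 12.8, 15.1 and 12.0 in the siRNA replicates. The controls lay inside the range of the siRNA libraries. The means were 13.3 ± 0.59 and 13.3 ± 1.60 FPKM (SD, n = 3 each). The difference was −0.01 on the log2(FPKM + 1) scale with a 95% interval from −0.25 to 0.24, which on that scale runs from 0.840-fold to 1.18-fold (limma, BH-adjusted p = 0.979). Its sign turned under each of the 4 other scalings.

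Together the Hook genes summed to 17.5 ± 0.35 FPKM in control and 16.9 ± 2.10 FPKM in siRNA libraries (SD, n = 3 each; exact two-sided permutation p = 0.7). Hook3 made up 74.1% to 77.8% of this sum in the controls and 77.5% to 80.4% with the siRNA, with overlap. The Hook1 share was 12.5%, 11.2% and 10.7% in the control replicates against 9.67%, 7.74% and 9.32% in the siRNA replicates. Shares are taken within a library and so do not depend on its scaling. The Hook1 share was lower with the siRNA without overlap, 11.5 ± 0.94% against 8.91 ± 1.03% (SD, n = 3 each; exact two-sided permutation p = 0.1, the smallest possible). Hook2 lay above Hook1 in all 6 libraries, although their ranges overlapped in both groups.

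The FHIP gene Fam160b1, whose product has been linked to Rab1 membranes between the endoplasmic reticulum and the Golgi apparatus, was the most abundant of the 3 FHIP genes. It read 7.55, 6.82 and 7.83 FPKM in the control replicates against 6.22, 6.90 and 6.79 in the siRNA replicates. Control library 2 lay below siRNA library 2, so the groups overlapped. The means were 7.40 ± 0.52 and 6.64 ± 0.37 FPKM (SD, n = 3 each). The difference of −0.14 (95% interval −0.36 to 0.09) on the log2(FPKM + 1) scale did not pass (limma, BH-adjusted p = 0.465), lay within 0.02 of the median of all entries, and turned to 0.048 without the ribosomal RNA locus entries.

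Fam160a2 encodes the FHIP protein first found with Aktip and Hook proteins and tied to Rab5 endosomes. It read 3.72, 4.15 and 3.87 FPKM in the control replicates against 5.23, 3.57 and 4.78 in the siRNA replicates. In siRNA libraries 1 and 3 it was above every control, and in siRNA library 2 it was below every control. The means were 3.91 ± 0.22 and 4.52 ± 0.86 FPKM (SD, n = 3 each). The difference was 0.16 (95% interval −0.14 to 0.46) on the log2(FPKM + 1) scale and did not pass (limma, BH-adjusted p = 0.531). It was 0.066 without siRNA library 1, 0.29 without siRNA library 2 and 0.37 without the ribosomal RNA locus entries, so its size rested on single libraries and on the scaling.

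Fam160a2 shares 1181 exonic nt with Gm5901, annotated as protein coding on the opposite strand, and the sources used here do not say whether counting used strand. Gm5901 was listed at 1.31, 0.407 and 0.762 FPKM in the control replicates against 0.291, 0.890 and 0.535 in the siRNA replicates. It was lowest in siRNA library 1, where Fam160a2 was highest, and whether reads were divided differently between the entries was not tested. The sum of their FPKM values was 4.74 ± 0.25 in the controls and 5.10 ± 0.56 with the siRNA (SD, n = 3 each; exact two-sided permutation p = 0.4).

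Fam160a1, the third FHIP gene of the set, was close to 0. It was listed at 0.0428, 0.0259 and 0.0348 FPKM in the control replicates against 0.0524, 0.0847 and 0.0472 in the siRNA replicates. On its longest annotated transcript, of 4445 nt, they amount to about 2.52 to 3.78 fragments in a control and 4.21 to 7.90 in an siRNA library. These counts use the approximate depth of each library. The siRNA libraries lay above the controls, but the values rest on a few fragments each. Its transcripts also share 227 exonic nt with Gm37240 on the same strand, an entry listed at 2.04 to 2.36 FPKM. Without a filter its difference was 0.04 on the log2(FPKM + 1) scale (limma, BH-adjusted p = 0.489).

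FPKM is scaled to transcript length, but the transcripts used for each entry are not known. Levels of different genes are therefore compared only roughly, and the Aktip value may include reads of Rbl2, which overlaps it. In each of the 3 control libraries the order began with Aktip, followed by Hook3, Fam160b1 and Fam160a2, with Hook2 and Hook1 close together and Fam160a1 last. In each of the 3 siRNA libraries Aktip was below Hook3. Aktip was at 1.94, 1.78 and 1.19 times the level of Hook3 in the control replicates against 0.651, 0.495 and 0.529 times in the siRNA replicates. Against the summed Hook genes its ratio was 1.24 ± 0.28 in the controls and 0.440 ± 0.058 with the siRNA, and against the summed FHIP genes 1.92 ± 0.45 and 0.660 ± 0.097 (SD, n = 3 each). These ratios use Aktip and are a description. The summed FHIP genes measured 11.3 ± 0.37 and 11.2 ± 0.58 FPKM (SD, n = 3 each; exact two-sided permutation p = 0.8). Of the 7 genes, 4 had their lowest value in siRNA library 3, namely Aktip and the 3 Hook genes, and that library had the highest share of FPKM in the ribosomal RNA locus entries, 19.9%.

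**Figure D2:**
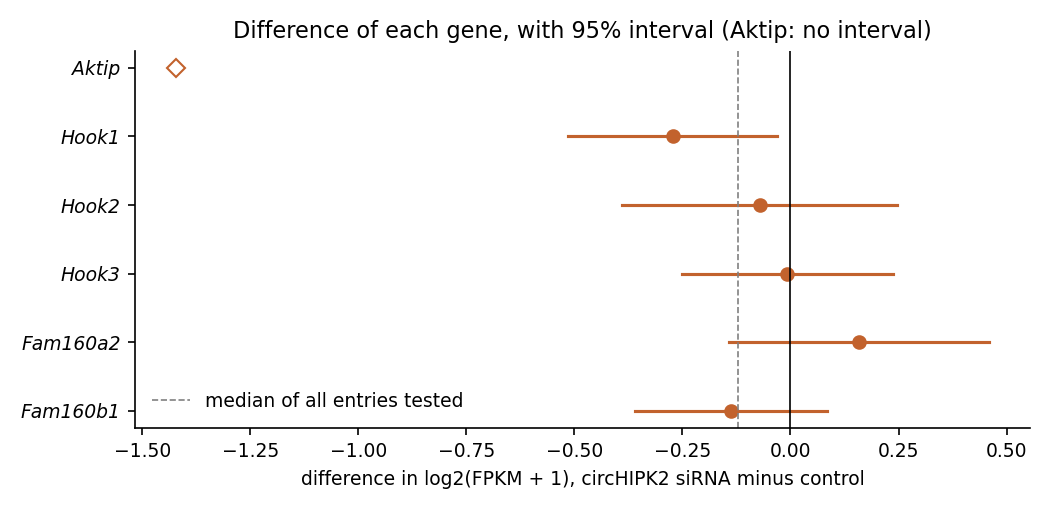
Difference in log2(FPKM + 1), circHIPK2 siRNA minus control, for Aktip and the 5 tested partners; lines are 95% intervals and the dashed line is the median of all entries tested (−0.12). Aktip is at −1.42 and is shown without an interval because it chose the set, while the partners lie between −0.27 and 0.16.

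The genes beside Aktip on chromosome 8 were examined next, as the 3 named protein-coding genes on each side. Of the 6, 5 passed the filter and 0 were called (limma, lowest BH-adjusted p = 0.388), with 0 at an unadjusted p below 0.05. Rbl2, which encodes the pocket protein p130 of the retinoblastoma family, ends against Aktip from the opposite strand, and their exons share 693 nt. The genes overlap over 12061 nt in all, and without knowing the use of strand, reads of Aktip and Rbl2 there cannot be told apart. It read 9.80, 9.68 and 8.92 FPKM in the control replicates against 8.68, 9.92 and 8.37 in the siRNA replicates. The groups overlapped, and the difference was −0.07 on the log2(FPKM + 1) scale (limma, BH-adjusted p = 0.721), turning to 0.042 with median-of-ratios scaling.

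Rpgrip1l, which encodes a protein of the ciliary transition zone and is the next gene on the other side, read 1.69, 1.63 and 1.86 FPKM in the control replicates. Its siRNA replicates read 1.18, 1.54 and 1.45 FPKM, lower without overlap, as were 22.1% of all entries. Its difference was −0.19 on the log2(FPKM + 1) scale (limma, BH-adjusted p = 0.395). Fto, an RNA demethylase gene, had means of 32.1 ± 1.53 and 28.4 ± 2.69 FPKM, and Tox3, a transcriptional coactivator gene, had means of 11.1 ± 0.29 and 10.8 ± 2.20 FPKM (SD, n = 3 each). The value of Chd9, a chromatin remodeller gene, rested on 1 library. It was at 30.5 FPKM in control library 1 and between 4.25 and 6.18 FPKM in the other 5, and its difference of −0.68 on the log2(FPKM + 1) scale turned to 0.11 without that library. Irx3, at 0.0498 to 0.254 FPKM, was below the filter.

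**Figure D3:**
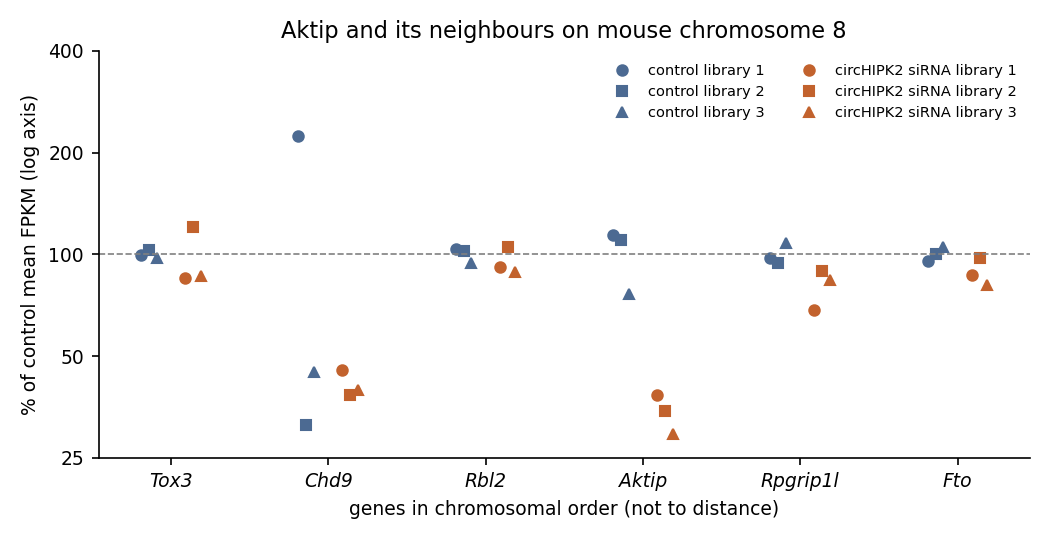
FPKM of Aktip and its tested neighbours in each library as a percentage of the gene's own control mean, on a log axis, in chromosomal order. The 3 siRNA libraries of Aktip lie between 29.4% and 38.2%, and control library 1 of Chd9 lies at 224%.

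Genes of the machinery around the complex were taken in 12 lists with 110 members, all with an entry and 106 above the filter. Of the 106, 0 were called in either direction (limma, BH-adjusted over all entries), against 0.255% of all entries, and the lowest BH-adjusted p was 0.137. At an unadjusted p below 0.05, 16 were lower and 0 higher, against 15.5% and 1.83% of all entries. The siRNA libraries lay entirely below the controls for 23 and entirely above for 0, against 22.1% and 2.65%. The median difference was −0.13 on the log2(FPKM + 1) scale, against −0.12 over all entries.

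Among the motor genes, 13 of 14 cytoplasmic dynein subunit genes were tested, with a median difference of −0.13 on the log2(FPKM + 1) scale. Dynlrb1, a light chain gene and the most abundant, had means of 302 ± 22.9 and 250 ± 25.9 FPKM (SD, n = 3 each). The 4 Dynlt1 entries are near-identical copies, so their reads may be split among them. The 12 dynactin genes had a median of −0.22, and their most abundant member Capzb, an actin capping subunit gene, had means of 109 ± 23.4 and 113 ± 13.7 FPKM. The 4 dynein regulator genes, which include the Lis1 gene Pafah1b1, had a median of −0.28 and lay between −0.44 for Ndel1, chosen after its value was seen, and −0.24 for Nudc. The Nudc value was −0.086 without control library 1 and −0.088 without siRNA library 3. Under the alternatives tried, 0 members of these 3 lists were called.

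Among 13 tested genes of other dynein adaptors the median difference was −0.09 on the log2(FPKM + 1) scale. Spag9, a JIP family scaffold gene and the most abundant, read 64.4, 67.9 and 69.4 FPKM in the control replicates against 62.0, 66.1 and 35.7 in the siRNA replicates. Its difference of −0.34 rested on siRNA library 3, without which it was −0.07. The extremes of the list, chosen after their values were seen, were Spdl1, a kinetochore adaptor gene, with means of 5.21 ± 0.50 and 3.37 ± 0.42 FPKM, and Trak1, a mitochondrial adaptor gene, with means of 8.20 ± 1.18 and 11.4 ± 5.95 FPKM (SD, n = 3 each). The mean of Trak1 rested on siRNA library 2, at 18.2 FPKM, and the BH-adjusted limma p of Spdl1 was 0.144.

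The relatives of Hook and FHIP genes outside the set included Ccdc88c, which carries a Hook-like domain, with means of 15.0 ± 0.90 and 15.8 ± 1.69 FPKM, and Fam160b2, the remaining FHIP gene, with means of 5.97 ± 0.083 and 5.34 ± 0.515 FPKM (SD, n = 3 each). Fam160b2 was chosen after its values were seen, and its difference was −0.14 on the log2(FPKM + 1) scale (limma, BH-adjusted p = 0.469). The 9 genes around Hook3, which include the kinesin gene Kif1c and Pcm1, had a median of −0.10. Tubg1, gamma tubulin, was the most abundant at 46.6 ± 3.64 and 37.8 ± 3.27 FPKM, with a BH-adjusted limma p of 0.231.

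Among the cargo-side lists, the 8 HOPS and CORVET tether genes had a median difference of −0.13 on the log2(FPKM + 1) scale, the 8 genes of early endosomes −0.07, and the 6 genes of the AP-4 coat and its cargo −0.07. Vps41, a HOPS subunit gene, had means of 25.8 ± 1.54 and 21.5 ± 2.67 FPKM. Rab5c, a small GTPase gene of early endosomes, had means of 126 ± 2.90 and 117 ± 12.7 FPKM. Atg9a, an autophagy gene whose product AP-4 vesicles carry, had means of 18.5 ± 0.83 and 14.9 ± 3.07 FPKM (SD, n = 3 each for the 3 genes). None of the genes of these 3 lists passed the test.

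The last lists hold relatives and other partners of Aktip. The 12 genes of ubiquitin E2 variants, the protein family to which Aktip is related, and of the ESCRT-I sorting complex had a median difference of −0.03 on the log2(FPKM + 1) scale. Ube2v1, the most abundant, had means of 82.5 ± 5.30 and 84.3 ± 7.96 FPKM (SD, n = 3 each). The 7 genes of Akt kinases and their activators had a median of −0.18. Akt1 read 74.8, 73.3 and 70.6 FPKM in the control replicates against 61.7, 59.8 and 53.6 in the siRNA replicates. It was lower without overlap, as were 22.1% of all entries. Its difference was −0.32 (limma, BH-adjusted p = 0.195), and −0.11 without the ribosomal RNA locus entries.

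The 11 shelterin and replication genes had a median of −0.17 on the log2(FPKM + 1) scale. Pcna, the sliding clamp of replication, read 154, 125 and 130 FPKM in the control replicates. Its siRNA replicates read 100.1, 96.1 and 90.7 FPKM, lower without overlap, as were 22.1% of all entries. Its difference was −0.51 (limma, BH-adjusted p = 0.137), and it passed only with library weights (BH-adjusted p = 0.049), a setting in which 320 entries were called in place of 35. Over its alternatives the adjusted p ran from 0.049 to 0.380.

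**Figure D4:**
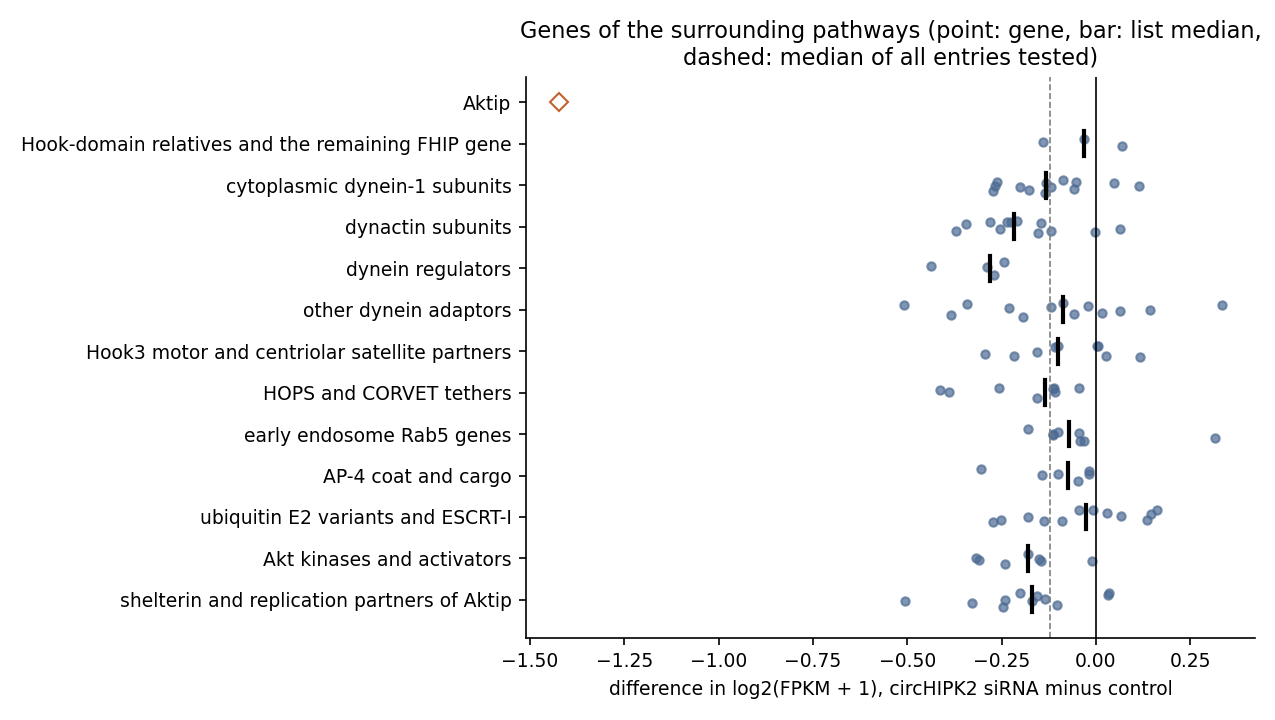
Difference in log2(FPKM + 1), circHIPK2 siRNA minus control, for each tested gene of 12 lists around the complex, with Aktip at the top. Black bars are list medians, which lie between −0.28 and −0.03, and the dashed line is the median of all entries, −0.12. The 106 genes lie between −0.51 and 0.33 and Aktip at −1.42.

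The entries with a pattern most like that of Aktip were found by the root mean square difference of log2(FPKM + 1) over the 6 libraries, after subtracting each entry's own mean. Smaller values are closer, and the median over 11135 named entries was 0.70. The closest was Uchl3, a ubiquitin hydrolase gene, at 0.15, followed by Lypd1, a modulator of nicotinic receptors, at 0.22, Serpina1a, an alpha-1-antitrypsin gene, at 0.23, Rps6ka3, a ribosomal S6 kinase gene, at 0.24, and Ahsg, which encodes fetuin-A, at 0.26. Of these, Serpina1a and Ahsg are in the hepatocyte list. Serpina1a, whose reads may be split with near-identical copies, was at 2.15 to 2.58 FPKM in the controls and at 0 to 0.026 with the siRNA, whereas Aktip kept 34.0% of its control level. The likeness of these 2 depends on the pseudocount of 1: with 0.1 the differences were −4.46 for Serpina1a and −4.55 for Ahsg, against −1.53 for Aktip. Uchl3 moved less with 0.1, from −1.40 to −1.97, and Lypd1 from −1.32 to −1.68, while Rps6ka3 stood at −1.52. Uchl3 kept 24.0% of its control level.

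Uchl3 read 5.08, 4.49 and 4.01 FPKM in the control replicates against 1.01, 1.27 and 0.982 in the siRNA replicates. Like Aktip, it was lowest among the controls in library 3 and lowest of all in siRNA library 3. Rps6ka3 read 11.5, 14.5 and 8.97 FPKM in the control replicates against 3.25, 5.47 and 3.41 in the siRNA replicates, also lowest among the controls in library 3. Lypd1, Serpina1a and Ahsg were not lowest among the controls in library 3. All these entries were picked for likeness to Aktip over the 6 libraries, and so for its difference between the groups. A shared order of libraries follows in part from that choice, and no test of these entries is given.

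**Figure D5:**
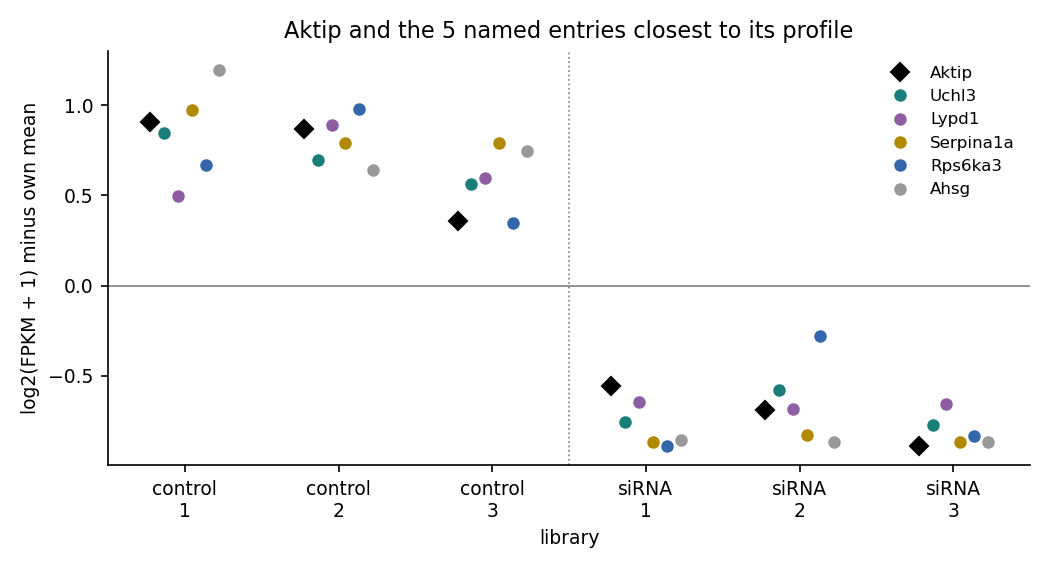
log2(FPKM + 1) minus the entry's own mean over the 6 libraries, for Aktip (diamonds) and the 5 named entries closest to it. All lie above 0 in the controls and below 0 with the siRNA, and Aktip, Rps6ka3 and Uchl3 are lowest among the controls in library 3.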

How the data were processed

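The deposited table held FPKM values for 54884 entries in 6 libraries, made by the authors. The submitters' processing notes name mm9 as the build and list HISAT, StringTie and edgeR, with no role for each. Not given in the sources used here are versions, the annotation, and whether strand and the molecular identifiers of the adapters were used. Per the labels' protocols, poly(A) RNA was made into dUTP libraries and read as pairs.

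The members and lists were chosen with earlier results of these data known. The 13702 entries whose mean reached 1 FPKM were taken as log2(FPKM + 1), which understates changes of low genes, and fitted with limma 3.58.1 in R 4.3.3 (mean-variance trend, two-sided, no covariates). P-values were adjusted over all entries by the Benjamini-Hochberg method and called below 0.05. No minimum fold was set. Intervals are 95% intervals from the same fit and cover the spread between libraries. The steps were tested on simulated data with known changes and independent noise for each entry. That simulation held no library-wide shift, so it does not check the effect of one.

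Named genes were the 7 members, up to 2 called genes per direction of each list or otherwise its most abundant, 3 neighbours on each side of Aktip, and the 5 entries most like it, not counting predicted, clone-named or pseudogene entries. Neighbours and promoter windows came from RefSeq (GRCm38.p6) and exon overlaps from GENCODE M21, both of a later build than mm9. Alternatives were a pseudocount of 0.1 or 0.5, a filter at 5 FPKM or none, 4 other scalings, 3 other forms of moderation or weighting, the replicate number as a block, and each library left out in turn.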

Additional observations from a re-analysis of the deposited data

How the results depend on the processing

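Over 18 alternatives the Aktip difference lay between −1.60 and −1.29 on the log2(FPKM + 1) scale, and 0 partners were called under any of them. The count of all entries called, 35, changed to 22 with a mean of at least 5 FPKM, 16 with quantile normalization and 320 with library weights, and ran from 8 to 35 when 1 library was left out. It was 8 without siRNA library 3 and 22 without control library 3. Of the calls 45.7% were higher, against 24.1% with no filter, 63.6% with a mean of at least 5 FPKM, 25% with quantile normalization, 30.8% with robust moderation and 17.2% with library weights. Genes of the 12 lists were called only with library weights (1, Pcna). The median of all entries moved from −0.12 to −0.01 with median-of-ratios scaling, 0.0006 with quantile normalization and 0.06 without the ribosomal RNA locus entries.

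Signs turned on the log2(FPKM + 1) scale as follows, with 0 calls among these values. With median-of-ratios scaling the values were 0.0093 for Hook2, 0.11 for Hook3, 0.061 for Tox3, 0.042 for Rbl2 and 0.0091 for Rab5c. With quantile normalization they were 0.0027 for Hook2, 0.12 for Hook3, 0.073 for Tox3, 0.047 for Rbl2 and 0.058 for Rab5c. Without the ribosomal RNA locus entries they were 0.078 for Hook2, 0.19 for Hook3, 0.048 for Fam160b1, 0.14 for Tox3, 0.12 for Rbl2, 0.028 for Fto and 0.092 for Rab5c. With columns rescaled Hook3 was at 0.024, and with library weights Capzb was at −0.058. Leaving out 1 library gave ranges of −0.18 to 0.057 for Hook2, −0.096 to 0.056 for Hook3, −0.20 to 0.026 for Tox3, −1.18 to 0.11 for Chd9, −0.11 to 0.20 for Capzb and −0.046 to 0.079 for Ube2v1. The sign of Chd9 turned only without control library 1, and the cause of the others was not tested.

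With the replicate number as a block 46 entries were called, 0 of them partners or members of the lists. Deviations of same-numbered libraries correlated at 0.046, 0.015 and 0.133, and those of differently numbered libraries at −0.166 to 0.117. These values do not settle whether the numbers pair the libraries, and the main fit did not pair them. The values of Fam160a1 amount to about 2.52 to 7.90 fragments per library on its longest transcript at the approximate depths. So few fragments limit what its difference can show.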
